A study of Mus musculus with 6 samples.

Results

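Ribosomal proteins of the cytosolic ribosome were followed in mouse bone marrow cells 72 hours after transduction with MN1 or with an empty vector. The genes were chosen by symbol from the 19938 genes with a single name on the array. A gene was taken where its symbol is Rpl or Rps followed by a digit, or is Rplp0, Rplp1, Rplp2 or Rpsa. S6 kinase genes and symbols of pseudogenes were left out. This gave 63 genes, each read from the probe set with the highest mean over all arrays. Of these, 54 encode proteins of the ribosome itself, 33 of the large and 21 of the small subunit. They are called core genes below. Another 7 are paralogs or ribosomal protein-like genes, namely Rpl3l, Rpl7l1, Rpl10l, Rpl32l, Rpl39l, Rps4l and Rps27l. The remaining 2, Rps19bp1 and Rps23rg1, are only named after a ribosomal protein, since Rps19bp1 encodes a nucleolar protein that binds Rps19 and Rps23rg1 arose from a retroposed copy of Rps23.

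The MN1 group received a retroviral MSCV vector that expresses MN1 together with a fluorescent reporter, joined by an internal ribosome entry site. The control group received the same vector without MN1. Cells positive for the reporter, called YFP in the series description and GFP in the sample labels, were sorted and their total RNA hybridised to single-colour Affymetrix arrays. Each group had 3 arrays, from a series of 3 independent experiments. All cells compared were therefore virally transduced, sorted marrow cells, and the labels give no strain, age or purification before transduction. In bulk RNA of this kind, fewer cells of a type and less RNA per cell cannot be told apart.

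Values are log2 expression after RMA, which removes background, puts the arrays on a common scale and combines the probes of each set into a single value. Array medians ran from 5.82 to 6.01, and the correlation between arrays over genes ran from 0.967 to 0.992. Mn1 measured 6.47, 6.62 and 6.08 on the MN1 arrays and 5.34, 5.41 and 4.80 on the empty vector arrays, so its groups were apart. Both group means, 6.39 and 5.18, lay under the median level of all genes, 6.55. Groups were apart with MN1 above in 5.71% of all genes. Whether this probe set reads the transcript of the vector was not tested. With limma and Benjamini-Hochberg adjustment over all 19938 genes, 0 genes passed an adjusted p of 0.05 in either direction (0% of genes tested), and the smallest adjusted p was 0.579. The pan-leukocyte markers Ptprc, Spi1, Laptm5, Coro1a and Cd53 had a mean level of 11.80 to 12.03 on every array. Some members varied more than this mean, with Spi1 from 11.38 to 12.29 and Coro1a from 11.17 to 12.37.

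Cytosolic ribosomes are built from a large and a small subunit, each a scaffold of ribosomal RNA clothed with proteins that are mostly needed in equal numbers. Growing cells spend much of their transcription on these genes. The messages typically begin with a C followed by a run of pyrimidines, the 5′ terminal oligopyrimidine (TOP) motif, through which mTOR and the RNA-binding protein Larp1 control how heavily they are translated. In people, loss of a single copy of several of these genes causes Diamond-Blackfan anaemia, a failure of red cell production in the marrow.

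The shared start is shown for the 9 core genes whose RefSeq start (build GRCm38.p6) is a C followed by at least 4 further C or T bases. Each line gives 15 bases before and 15 after the start, 5′ to 3′, and the capitals mark the pyrimidine run that opens the transcript.
Rps10: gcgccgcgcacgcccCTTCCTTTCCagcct
Rps18: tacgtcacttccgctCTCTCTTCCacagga
Rps6: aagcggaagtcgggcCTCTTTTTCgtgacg
Rpl28: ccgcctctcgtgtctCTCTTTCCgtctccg
Rpl38: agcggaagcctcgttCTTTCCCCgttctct
Rps15a: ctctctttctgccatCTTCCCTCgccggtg
Rpl14: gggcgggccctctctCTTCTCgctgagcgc
Rplp2: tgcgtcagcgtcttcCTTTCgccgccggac
Rps21: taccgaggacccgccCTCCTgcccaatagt

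These windows lie at chr17:27635230-27635259 for Rps10, chr17:33955651-33955680 for Rps18 and chr4:86857353-86857382 for Rps6, all on the minus strand, and at chr7:4792950-4792979 for Rpl28 and chr11:114668565-114668594 for Rpl38 on the plus strand. The window of Rps15a is chr7:118116133-118116162 on the minus strand. Those of Rpl14, Rplp2 and Rps21 are chr9:120571502-120571531, chr7:141447636-141447665 and chr2:180257364-180257393 on the plus strand. Of the 54 core genes, 43 matched the promoter table, and 9 of them (20.9%) have this start, against 3.01% of all 27025 genes in the table. The letters CCGGAAG, on either strand a core of sites for ETS factors such as GABP, occur in the window from 250 bases before to 50 after the start in 17 of the 43 genes (39.5%) and in 9.93% of all genes. TATAAA, on either strand, occurs in 5 of the 43 (11.6%) and in 15.7% of all genes. A match describes these letters and is no evidence of binding, and an annotated start may miss the start that the cells use.

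MN1 and empty vector arrays gave nearly the same values for ribosomal protein messages. With arrays labelled from 200 ng of total RNA and scaled by RMA, these values are relative to the RNA of each sample. Amounts per cell were not measured. The log2 difference, MN1 minus empty vector, ran from -0.24 in Rpl37a to 0.26 in Rps19bp1, with a median of -0.03 over the 63 genes. The median over all genes tested was also -0.03, and that over the 3988 brightest genes was 0.05. Of the 63 genes, 42 had the lower mean with MN1 and 21 the higher (56.7% of all genes had the lower mean). None of the 63 passed the adjusted test, where the smallest adjusted p was 0.584 (limma). At an unadjusted p under 0.05, 0 of the 63 were lower and 0 higher, beside 4.23% and 4.17% of all genes. The 3 MN1 values lay below all 3 empty vector values in 1 gene, Rpl7a, and above them in 0 genes. Over all genes the groups were apart in this way in 10.3%, with MN1 below, and in 5.71%, with MN1 above.

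The differences were small and fairly precise. An absolute difference of at most 0.1 was found in 47 of the 63 genes, beside 37.5% of all genes. A difference of at least 1 in either direction was found in 0 of the 63, beside 1.37% of all genes. The 95% interval of the difference lay within 1.5-fold in both directions in 59 of the 63, beside 64.4% of all genes. The 4 exceptions were Rpl37a, Rps20, Rpl12 and Rps19bp1. The median residual SD was 0.14 for core genes, 0.17 over all genes tested and 0.22 over the 3988 brightest. Smaller changes than these intervals allow were not detectable with 3 arrays per group.

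**Figure D1:**
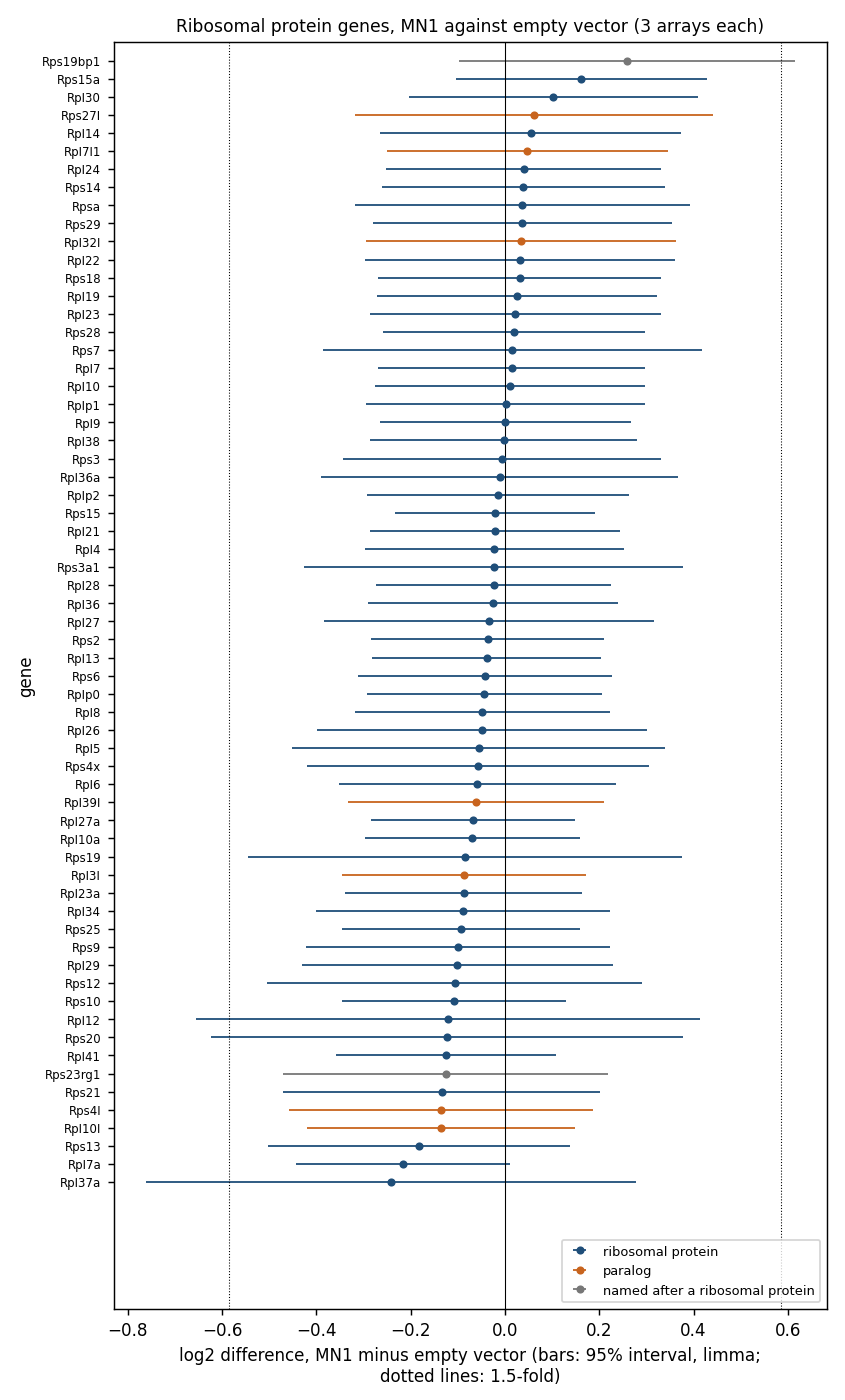
Log2 difference, MN1 minus empty vector (x axis), for each of the 63 genes (y axis), with 95% intervals from limma as bars and 1.5-fold marked by dotted lines; colours separate core genes, paralogs and the 2 genes only named after a ribosomal protein. Every interval includes 0, and 59 of 63 stay between the dotted lines.

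Both subunits had small differences. The median difference was -0.03 for the 33 core genes of the large subunit, of which 23 were lower and 10 higher. It was -0.04 for the 21 of the small subunit, of which 14 were lower and 7 higher. Differences ran from -0.24 to 0.10 in the large subunit and from -0.18 to 0.16 in the small.

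The stalk of the large subunit, which recruits the GTPases of translation, is formed by Rplp0, Rplp1 and Rplp2. Rplp0, the base of the stalk, measured 13.35, 13.45 and 13.57 with MN1 and 13.41, 13.52 and 13.57 with the empty vector. Rplp1 measured 13.32, 13.51 and 13.64 against 13.46, 13.38 and 13.62, and Rplp2 measured 6.72, 6.70 and 6.96 against 6.87, 6.68 and 6.87. The groups overlapped in each case, with log2 differences of -0.04 ± 0.10, 0.00 ± 0.12 and -0.01 ± 0.12 (SE, n = 3 per group). Rplp2 was read from 1 single-named probe set with a mean of 6.80, near the median level of all genes, 6.55. The means of Rplp0 and Rplp1 were 13.48 and 13.49. How well the dim probe set reads the Rplp2 message was not tested.

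Rpl5 and Rpl11 bind 5S ribosomal RNA and, when ribosome assembly fails, hold back Mdm2, the ubiquitin ligase of p53. Rpl5 measured 12.37, 12.35 and 12.78 with MN1 and 12.37, 12.54 and 12.77 with the empty vector, a difference of -0.06 ± 0.16 (SE). Rpl11 is reached only by a probe set that also names Brf2, which measured 12.55, 12.83 and 12.75 against 12.76, 12.68 and 12.77. In both genes the groups overlapped. Around the exit tunnel, through which the new chain leaves the ribosome, 3 of 6 listed genes were measured singly, and Rpl4, Rpl19 and Rpl22 differed by -0.02, 0.03 and 0.03.

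Along the path of the message on the small subunit, 7 of 9 listed genes were measured singly, and their differences ran from -0.04 to 0.04. Rps6, whose protein is a substrate of S6 kinase, measured 12.99, 13.06 and 13.21 with MN1 and 13.07, 13.04 and 13.27 with the empty vector. Phosphorylation of that protein, a readout of mTOR activity, was not measured. Rpsa, which is also known as the laminin receptor, measured 12.88, 12.94 and 13.25 against 12.91, 12.86 and 13.19. Rps14, whose loss in people is tied to a myelodysplastic syndrome with anaemia, measured 12.48, 12.48 and 12.64 against 12.28, 12.55 and 12.64. Rps2 differed by -0.04 ± 0.10 (SE). All 4 genes had overlapping groups.

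Of 19 genes mutated in human Diamond-Blackfan anaemia, 9 were measured singly. Their median difference was -0.03, with 5 lower and 4 higher, and 0 passed the test in either direction. Rps19, the gene most often mutated, measured 10.37, 10.35 and 10.42 with MN1 and 10.14, 10.37 and 10.88 with the empty vector. Its empty vector arrays enclosed the MN1 arrays, and the difference of -0.08 ± 0.19 (SE) is smaller than the spread among controls. Rps10 measured 12.32, 12.39 and 12.50 against 12.54, 12.43 and 12.57, with overlapping groups and a difference of -0.11 ± 0.10 (SE). Rpl26, which also binds the p53 message, measured 8.57, 8.57 and 8.86 against 8.54, 8.67 and 8.94. A brighter Rpl26 probe set that also names another gene measured 11.18, 11.16 and 11.66 against 11.21, 11.31 and 11.61.

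Among core genes the lowest differences were those of Rpl37a, Rpl7a, Rps13, Rps21 and Rpl41. Rpl7a, a protein at the surface of the large subunit, measured 10.95, 11.14 and 11.08 with MN1 and 11.25, 11.28 and 11.28 with the empty vector. Its arrays did not overlap, and the difference was -0.22 ± 0.09 (SE), with an unadjusted p of 0.0578 and an adjusted p of 0.584 (limma). All 3 single-named probe sets of Rpl7a were lower, by -0.18 to -0.22, and a brighter probe set that also names a predicted gene differed by -0.17. Rpl37a, a zinc-binding protein of the large subunit, measured 11.43, 11.92 and 11.37 against 12.06, 11.93 and 11.46. Its groups overlapped, since replicate 3 of the empty vector lay within the MN1 range, and the difference was -0.24 ± 0.22 (SE). It was -0.12 without empty vector replicate 1 and -0.42 without empty vector replicate 3.

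Rps13, a small subunit protein at the interface with the large subunit, measured 10.32, 10.58 and 10.72 with MN1 and 10.63, 10.70 and 10.85 with the empty vector, a difference of -0.18 ± 0.13 (SE). MN1 replicates 1 and 2 were the lowest arrays and MN1 replicate 3 lay among the controls. Without MN1 replicate 1 the difference was -0.07. Rps21 differed by -0.13 ± 0.14 and Rpl41, the smallest protein of the ribosome, by -0.13 ± 0.10.

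At the other end, Rps15a measured 9.001, 8.82 and 8.70 with MN1 and 8.63, 8.65 and 8.75 with the empty vector. Its groups overlapped through MN1 replicate 3, and the difference was 0.16 ± 0.11 (SE), or 0.08 without MN1 replicate 1. A brighter probe set of Rps15a that also names its pseudogenes measured 11.83, 11.81 and 12.20 against 11.71, 11.93 and 12.27, a difference of -0.03, so the probe sets of this gene disagree in direction. Rps19bp1 had the highest difference of the 63, 0.26 ± 0.15 (SE), at 9.54, 9.54 and 9.33 against 9.36, 8.93 and 9.34. The low value of empty vector replicate 2 sets its size, and without that array the difference was 0.12.

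The paralogs are copies with restricted or little-known use, such as the striated muscle form Rpl3l and the testis forms Rpl10l and Rpl39l. The groups overlapped in all 7. Rpl3l ran from 4.87 to 5.16 over the 6 arrays, Rpl10l from 5.35 to 5.78 and Rpl39l from 4.02 to 4.32. With MN1 minus empty vector these 3 differed by -0.09, -0.14 and -0.06. Rps4l, a mouse relative of Rps4x, differed by -0.14 ± 0.13 (SE) and Rpl7l1 by 0.05 ± 0.12. Rpl32l differed by 0.03 ± 0.14, and Rps23rg1, outside the paralogs, by -0.13 ± 0.14.

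Rps27l, a p53-induced relative of Rps27, measured 8.72, 8.66 and 8.69 with MN1 and 8.37, 8.56 and 8.95 with the empty vector. The MN1 arrays were alike and lay inside the range of the controls. The parent genes Rpl7, Rpl10, Rpl22, Rpl26, Rpl36a and Rps4x, which are the ones measured singly, differed by -0.06 to 0.03.

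The core genes also varied together from array to array within each group. In both groups the array numbered 3 carried the highest levels of most ribosomal protein messages. MN1 replicate 3 was the highest MN1 array for 47 of the 54 core genes, and empty vector replicate 3 was the highest control for 48. Both held for 44 of the 54, beside 14.8% of all genes tested. In 41 of the 54 these 2 arrays lay above all of the other 4, beside 8.40% of all genes. The lowest of the 6 arrays was MN1 replicate 1 for 26 of the 54, beside 25.2% of all genes. This pattern was noticed in the data and is given as a description, with no test.

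In size the shift is small and shared. The median deviation of the core genes from their own means was 0.12 on MN1 replicate 3 and 0.13 on empty vector replicate 3. It was -0.13 on MN1 replicate 1 and -0.04 on each of the other 3 arrays. For all genes tested the medians lay between -0.05 and 0.03 on every array. The small subunit took part in 20 of 21 genes and the large subunit in 24 of 33, counting genes highest on both arrays numbered 3. Among the 7 paralogs, 1 did so (14.3%), beside 14.8% of all genes. The paralogs numbered 4 after median-centring of the arrays, beside 25.9% of all genes, and 2 after quantile normalization, beside 18.6%.

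**Figure D2:**
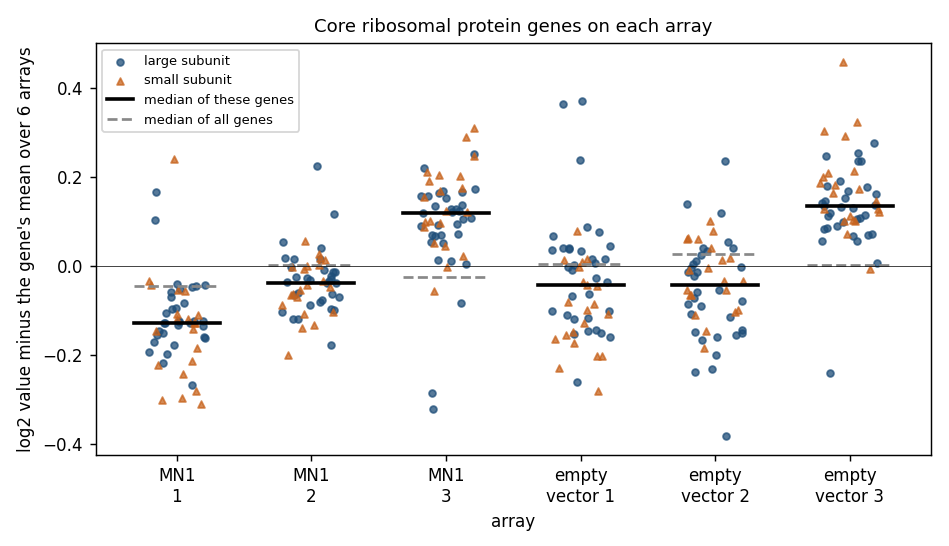
Deviation of each of the 54 core genes from its own mean over the 6 arrays (y axis, log2) on each array (x axis), with large subunit genes as circles and small subunit genes as triangles. Black bars are medians of the core genes, 0.12 and 0.13 on the arrays numbered 3 and below 0 on the other 4; dashed grey bars are medians of all genes.

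Rps20, Rps7, Rps12 and Rps3a1 are examples of the pattern, chosen after their values were seen. Rps20, a small subunit protein of the head, measured 11.96, 12.05 and 12.56 with MN1 and 12.05, 12.31 and 12.58 with the empty vector. Rps7 measured 12.57, 12.56 and 12.99 against 12.50, 12.67 and 12.91. Rps12 measured 12.39, 12.53 and 12.83 against 12.49, 12.65 and 12.93. In each gene the arrays numbered 3 resemble each other more than they resemble their own group. Rps20 differed by -0.12 ± 0.21 (SE) between the groups, while within each group replicate 3 exceeded the mean of the other arrays by 0.56 with MN1 and 0.39 with the empty vector. For Rps3a1 those excesses were 0.34 and 0.44.

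Some core genes did not follow. For Rpl37a the log2 value of replicate 3 minus the mean of the other arrays of its group was -0.30 with MN1 and -0.54 with the empty vector. Rps15, a small subunit protein near the decoding site, was highest on both arrays numbered 3 but had the smallest range over the 6 arrays, 0.13. Rps15 and Rpl12 were chosen for these ranges after their values were seen. Rpl12, which forms the base of the stalk region with Rplp0, had the largest, 0.75, on a single-named probe set with a mean of 8.39. A brighter Rpl12 probe set that also names another gene measured 12.75, 12.81 and 13.28 with MN1 and 12.76, 12.92 and 13.21 with the empty vector, and so was highest on both arrays numbered 3. The median range over the 6 arrays was 0.34 for core genes, 0.49 for all genes and 0.59 for the 3988 brightest.

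The size of the array pattern depended on how the arrays were scaled. After median-centring, 49 of the 54 core genes were highest on the arrays numbered 3 in both groups, beside 25.9% of all genes. After quantile normalization there were 34, beside 18.6% of all genes. The median deviations on MN1 replicate 3 and empty vector replicate 3 were 0.24 and 0.15 after median-centring, and 0.07 and 0.10 after quantile normalization. For all genes tested they were 0.09 and 0.01 after median-centring, and 0.01 and 0.02 after quantile normalization. For the 3988 brightest genes they were 0.17 and 0.01 after median-centring, and 0.02 and 0.01 after quantile normalization.

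Many cell type marker lists had means that differed more between arrays than that of the core ribosomal protein genes, with the stromal and endothelial list and the pan-leukocyte list as exceptions. The mean of 15 neutrophil markers, such as Elane and Ly6g, was 9.26, 10.02 and 9.46 on the MN1 arrays and 10.92, 11.96 and 8.96 on the empty vector arrays. The lowest values were those of both arrays numbered 3 and of MN1 replicate 1, where ribosomal protein messages were lowest. The mean of 12 monocyte and macrophage markers was 11.26, 10.53 and 10.63 with MN1 and 10.20, 9.32 and 10.19 with the empty vector. That of 11 S phase and mitosis genes was 9.01, 10.03 and 9.76 against 10.05, 10.25 and 9.79, lowest on MN1 replicate 1. That of 11 B lymphoid markers was 6.95, 6.07 and 6.97 against 6.18, 5.65 and 6.84. The 10 T and NK markers had means of 5.89 to 6.57 and the 8 stromal and endothelial markers 7.00 to 7.20. The part of cell composition in the ribosomal protein values was not tested.

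**Figure D3:**
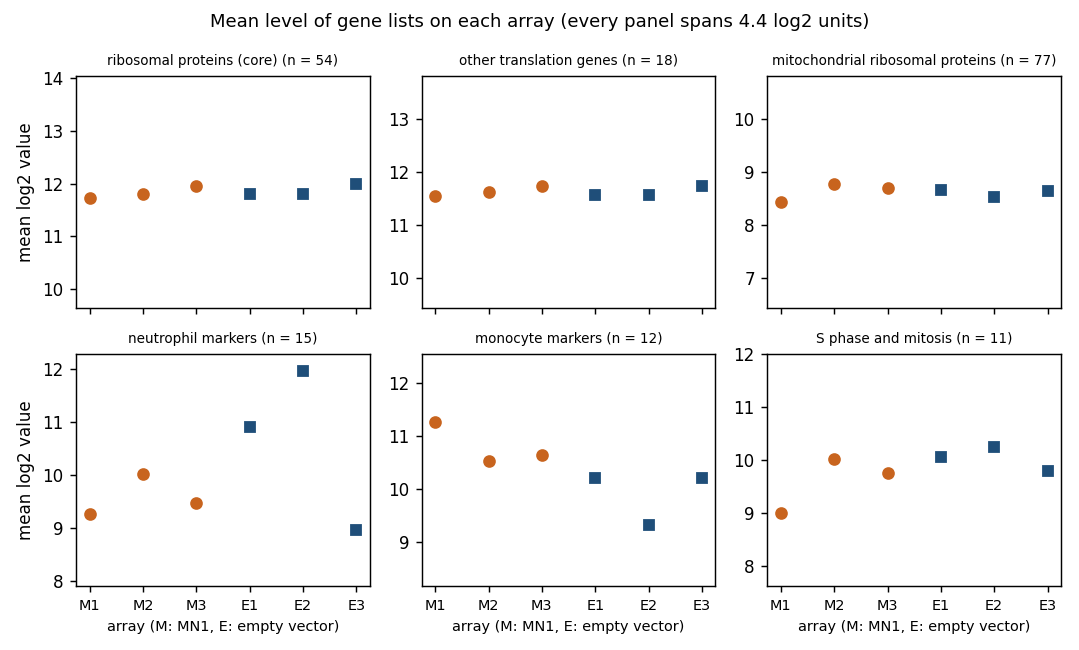
Mean log2 level of 6 gene lists (y axis, the same span in every panel) on each array (x axis; M, MN1; E, empty vector). Core ribosomal protein genes stay between 11.72 and 11.99, while neutrophil markers run from 8.96 to 11.96.

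The stem and progenitor, megakaryocyte, erythroid and mast cell lists also had means that ranged more widely than that of the core genes. The 12 stem and progenitor markers had a mean of 8.75, 9.40 and 9.16 with MN1 and 8.58, 8.17 and 8.51 with the empty vector. The 6 megakaryocyte and platelet markers had 11.58, 10.90 and 10.02 against 10.37, 9.0001 and 10.10. The 7 erythroid markers had 5.88, 6.27 and 6.36 against 6.82, 6.61 and 6.74, so all MN1 arrays lay below all controls. The T and NK means lay apart in the same direction, at 5.89, 6.24 and 6.25 against 6.34, 6.40 and 6.57. Means of the stem and progenitor list and of the monocyte and macrophage list were also apart, with MN1 above. The 11 mast cell, basophil and eosinophil markers had 8.75, 9.80 and 8.87 against 10.59, 10.71 and 9.02. The mean of the core ribosomal protein genes was 11.72, 11.81 and 11.95 against 11.80, 11.80 and 11.99, with the groups overlapping.

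None of the other lists of translation genes held a called gene (0 in each, limma). Of 20 further genes known for TOP messages, such as the elongation factor gene Eef1d and the stress-associated Tpt1, 18 were measured, 10 higher and 8 lower, with a median of 0.01. The largest differences were 0.17 ± 0.16 (SE) in Nap1l1, a histone chaperone gene, and -0.16 ± 0.18 in Eef1d. Both rest on single arrays, since Nap1l1 differed by 0.06 without MN1 replicate 2 and 0.07 without empty vector replicate 2, and Eef1d by 0.00 without MN1 replicate 1. Of these 18 genes, 10 were highest on both arrays numbered 3. Fau, whose product yields the small subunit protein S30 but whose name the rule does not take, measured 12.25, 12.26 and 12.24 against 12.45, 12.29 and 12.21. It did not follow the array pattern.

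Of 21 measured initiation factor genes outside the TOP list, the mean with MN1 was higher for 16 and lower for 5, and the median difference was 0.07. Eif5b, the factor that joins the subunits, had the largest difference. It measured 9.25, 9.20 and 9.16 with MN1 and 8.92, 8.95 and 8.88 with the empty vector, so the groups were apart. The difference was 0.29 ± 0.09 (SE), with an adjusted p of 0.584 (limma), and 0.21 after quantile normalization. Eif3i and Eif3m differed by -0.19 ± 0.17 and 0.18 ± 0.24. Eif3i differed by -0.01 without MN1 replicate 1, and Eif3m by 0.02 without MN1 replicate 3 and by -0.02 without empty vector replicate 1.

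Among 16 measured regulators of these messages, such as Larp1, Mtor and Myc, 11 had higher and 5 lower means with MN1. The median difference was 0.10. The mean of the list was 9.63, 9.69 and 9.61 against 9.63, 9.40 and 9.54, with the groups overlapping. Mycn, a Myc family gene, stood out in size and measured 11.12, 10.88 and 10.54 with MN1 and 9.96, 8.89 and 10.69 with the empty vector. Its groups overlapped, and the difference of 1.01 ± 0.44 (SE) was 0.53 without empty vector replicate 2. Rheb, the activator of mTOR, differed by 0.26 ± 0.18 and Eif4ebp2, a repressor of cap-dependent translation, by -0.25 ± 0.20. Without empty vector replicate 1 they differed by 0.14 and -0.06, and without empty vector replicate 3 by 0.40 and -0.42.

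Of 29 measured genes of ribosome assembly and ribosomal RNA synthesis, the split was 14 higher to 15 lower, around a median of 0.00. Fbl, the methyltransferase of box C/D particles, differed by -0.24 ± 0.16 (SE), Grwd1 by -0.23 ± 0.23 and the polymerase subunit gene Polr1c by 0.22 ± 0.16. These values also moved with single arrays. Fbl differed by -0.08 without MN1 replicate 1. With arrays left out in turn, Grwd1 ran from -0.44 without empty vector replicate 2 to -0.08 without empty vector replicate 1, and Polr1c from 0.13 without empty vector replicate 2 to 0.38 without empty vector replicate 3. Of 11 measured chaperones, importers and surveillance factors, 7 had higher and 4 lower means. Nemf, which marks stalled chains on the large subunit, measured 8.32, 8.33 and 8.43 against 7.92, 7.83 and 8.13. Its groups were apart, with a difference of 0.40 ± 0.11 and an adjusted p of 0.584 (limma). Mdm2 measured 11.23, 9.95 and 10.04 against 9.89, 9.19 and 10.50, and its groups overlapped.

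The ribosome of mitochondria has its own proteins, encoded by Mrpl and Mrps genes. Of these, 77 were measured, with 48 higher and 29 lower, a median difference of 0.02 and a range from -0.39 in Mrpl47 to 0.63 in Mrpl42. Mrpl47 differed by -0.25 without empty vector replicate 1 and by -0.02 on its probe set with the lowest mean. Mrpl42 differed by 0.41 without empty vector replicate 2. In 17 of the 77 (22.1%) the arrays numbered 3 were highest in both groups. No test of the difference between the mitochondrial and cytosolic genes was made.

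Ribosomal protein genes have many processed pseudogenes, and this touches how the array reads them. Which locus each probe set reads was not settled here, so a single-named value may come in part from a pseudogene. The 63 genes were named by 219 single-named probe sets, up to 14 for Rps12, and 39 genes had more than 1. Of the 219, 19 had the same values as another probe set of the same gene. Among the 39 genes, the differences of a gene's probe sets spanned a median of 0.04 and at most 0.23, in Rps15. In 10 of the 39 they lay on both sides of 0.

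**Figure D4:**
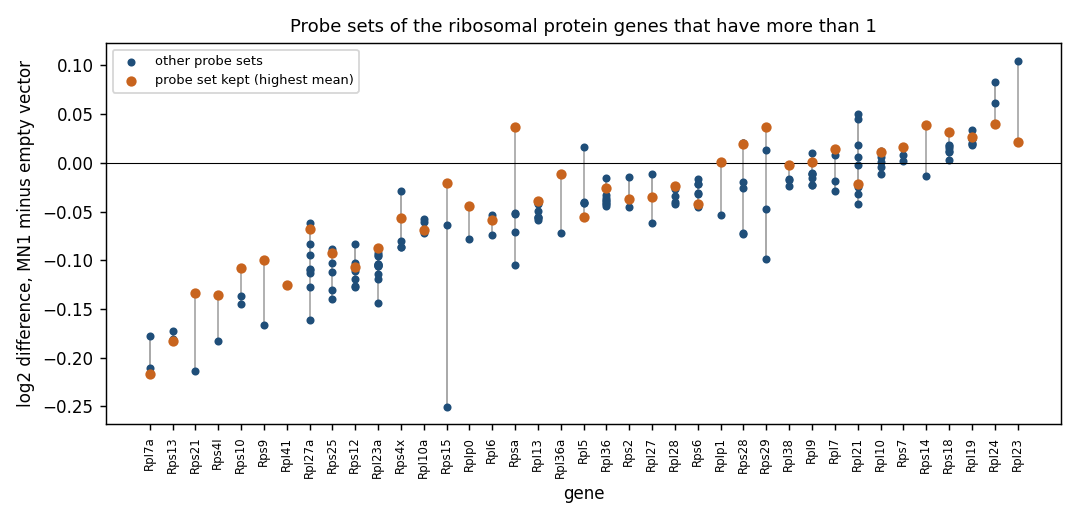
Log2 difference, MN1 minus empty vector (y axis), for every single-named probe set of the 39 genes with more than 1 (x axis), with the probe set kept in orange and the others in blue. Most genes span little, with a median span of 0.04, and Rps15 the most, 0.23.

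A further 15 genes that meet the naming rule were reached only by probe sets that also name other genes, often pseudogenes. Their differences ran from -0.16 to 0.08 with a median of 0.00, with 7 higher and 8 lower, and 14 of the 15 were highest on the arrays numbered 3 in both groups. Rpl22l1, a paralog of Rpl22, showed the steepest such rise. It measured 7.83, 8.03 and 8.48 with MN1 and 7.85, 7.81 and 8.85 with the empty vector. Rpl35, chosen after its values were seen, had the lowest difference of these, -0.16. With such probe sets admitted, 67 core genes were read, with a median difference of -0.02 and a range from -0.27 to 0.08. Of 89 protein-coding genes in the RefSeq table that meet the rule, 12 were reached in neither way and were not analysed here.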

How the data were processed

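The values are log2 expression per probe set as the authors deposited them. RMA is the method named, per the submitters' processing notes, for arrays labelled from 200 ng of total RNA, per the labels' protocols. Values span 2.29 to 14.80, which fits log2. The sources used here give no software or version. All 6 columns were used. Of 35557 probe sets, 21789 carry 1 symbol in the platform annotation of 2016, 1621 several and 12147 none. No genome was used. RefSeq tables (GRCm38.p6) gave start sites, and 21698 single-named probe sets matched them by gene ID.

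Groups came from the sample titles. Genes were tested with limma 3.58.1 in R 4.3.3 (lmFit, eBayes, two-sided, no block, no filter), with Benjamini-Hochberg adjustment over 19938 genes, 4 residual and 2.43 prior degrees of freedom. The fit was tested on simulated data. Differences are MN1 minus empty vector, with moderated SE and 95% intervals. With 3 arrays per group, each p-value sets the group difference against the residual variance between these samples, moderated over all genes. Without a block, that variance takes in any difference between the experiments. Alternatives were other scalings, probe set choices, a replicate block, other variance settings, and arrays left out.

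The genes and lists were chosen with earlier results of these data known. Named genes are Mn1, the 8 largest differences per direction, the 5 highest and lowest levels, the smallest p per direction, stalk, 5S and paralog genes with their parents, and up to 3 genes per other list.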

Additional observations from a re-analysis of the deposited data

How the results depend on the processing

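No gene was called under any alternative fit run, or at an adjusted p of 0.1 (limma, 0 genes each). At an unadjusted p under 0.05, 843 genes were lower and 832 higher with all arrays. The median difference of the ribosomal protein genes, -0.03, ran from -0.10 without MN1 replicate 3 to 0.03 without empty vector replicate 3, so its sign rests on single arrays. Ribosomal protein genes lower at an unadjusted p under 0.05 numbered 1 after quantile normalization and 0 in the other fits. With all arrays 4.23% of all genes were lower in this way, and the shares in the other fits are not given here. Of the 63 genes, 1 had MN1 below all controls with all arrays and 2 after quantile normalization, beside 10.3% and 8.66% of all genes. There were 3 with probe sets averaged per gene and 0 with the lowest probe set, beside 10.4% and 10.3%. With MN1 above there were 2 after median-centring, beside 6.66%. With arrays left out in turn these counts ran from 2 to 8 below and from 0 to 4 above. The 8 came without MN1 replicate 3, where 14.6% of all genes were below. The 4 came without empty vector replicate 3, where 12.1% were above. Without both arrays numbered 3, a setting added after seeing the data, the counts were 11 and 5. Such counts rise by construction as fewer arrays must be apart, and 24.7% and 17.2% of all genes met them in the last setting. Rpl7a stayed below in each setting but that of the lowest probe set, with a difference from -0.26 to -0.16 and an adjusted p from 0.51 to 0.935. Of 878 values of the 55 named genes under the alternatives, 874 moved by less than the SD between replicates and 4 by more. The 874 include values that could not move, since the replicate block and an intensity-dependent variance setting leave every difference unchanged. Averaging probe sets or taking the lowest also changes nothing for a gene with 1 single-named probe set. The 874 are therefore no measure of stability. Of the 878, 80 lay on the other side of 0 and 0 passed an adjusted p of 0.05. The labels do not say whether array numbers pair the samples, and the main fit did not pair them. The correlation of same-numbered deviations was 0.13, 0.075 and 0.324 over all genes. MN1 replicate 2 correlated best with empty vector replicate 1 (0.437). Over the ribosomal protein genes alone the same-numbered correlations were 0.228, 0.147 and 0.339, all above 0.1. Among these genes MN1 replicate 2 again correlated best with empty vector replicate 1 (0.467). A correlation over genes leaves out a shift that the genes share, so these values cannot settle the pairing. With the replicate number as a block, 0 genes were called, 0 ribosomal protein genes had an unadjusted p under 0.05 in either direction, and the smallest adjusted p was 0.458 (limma). The number of arrays, 3 per group, limits all values.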
